A study of Mus musculus with 4 samples.

Results

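Genes of the BTG/TOB, IER and ZFP36 groups were followed in mouse liver: Btg1, Btg2, Btg3, Tob1, Tob2, Ier2, Ier3, Ier5, Zfp36 and Zfp36l1. They were chosen by gene symbol, as a list of 10 beside 19938 genes measured in all, with the differences between genotypes in these data already known. Those differences are therefore given as values, with no test. Of the 10 genes 9 could be measured, since the 2 probe sets of Btg3 are also assigned to the predicted gene Gm7334. All of these 9 but Ier3, that is 8 genes, passed the filter on low levels (a mean over the arrays above 3.34), which 11963 genes passed in all.

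The study compared 4 groups of liver, each 1 Affymetrix Mouse Gene 1.0 ST array of total RNA combined from 3 pairs of mice. The labels name them KO at 8 months of age, WT at 8 months, KO at 2 months and WT at 2 months. KO mice carried the conditional allele SIRT6Co/Co with Alb-Cre, a Cre recombinase under the albumin promoter that is active in hepatocytes and not in most other cells of the liver. The WT groups are labelled WT SIRT6, and no allele shared by all groups is given. An array summarises all cells of the tissue, so fewer cells of a type and less RNA per cell cannot be told apart.

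BTG and TOB proteins slow proliferation, and they bring the CCR4-NOT deadenylase complex to messenger RNAs, which shortens poly(A) tails. ZFP36 (tristetraprolin) and ZFP36L1 are zinc finger proteins that bind AU-rich elements and recruit the same complex, so that short-lived transcripts of cytokines and growth regulators decay. IER genes were named as immediate early response genes, which cells transcribe within minutes of a growth factor or stress signal. In liver such genes are known to rise after injury or loss of tissue, and ZFP36L1 is known in mice as a regulator of bile acid synthesis.

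Promoter windows are shown for 5 genes, those of Btg2, Zfp36, Tob1 and Zfp36l1, which were higher in KO by 0.54 or more at both ages, and that of Btg1, a close relative of Btg2 that was higher in KO by at most 0.14. They are the 250 bases before the annotated start of transcription in RefSeq on GRCm38.p6, on the strand of the gene: chr1:134079156-134079405 on the minus strand for Btg2, chr7:28379229-28379478 minus for Zfp36, chr11:94211204-94211453 plus for Tob1, chr12:80113014-80113263 minus for Zfp36l1 and chr10:96616751-96617000 plus for Btg1. Capitals mark matches, on either strand, to the CArG box bound by serum response factor, the cyclic AMP response element TGACGTCA, the Egr motif GCGNGGGCG, the AP-1 motif TGANTCA, the kappaB motif or TATAAA.
Btg2: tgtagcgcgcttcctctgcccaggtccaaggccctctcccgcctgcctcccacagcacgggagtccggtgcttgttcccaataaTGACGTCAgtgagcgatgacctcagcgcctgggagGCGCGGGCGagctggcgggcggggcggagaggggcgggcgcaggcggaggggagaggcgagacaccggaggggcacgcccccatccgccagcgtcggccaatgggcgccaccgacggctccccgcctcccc
Zfp36: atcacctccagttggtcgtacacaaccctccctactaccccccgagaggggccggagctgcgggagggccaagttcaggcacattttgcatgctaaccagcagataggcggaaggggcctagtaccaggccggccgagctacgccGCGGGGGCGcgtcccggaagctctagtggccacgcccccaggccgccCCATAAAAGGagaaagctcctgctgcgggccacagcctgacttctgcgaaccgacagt
Tob1: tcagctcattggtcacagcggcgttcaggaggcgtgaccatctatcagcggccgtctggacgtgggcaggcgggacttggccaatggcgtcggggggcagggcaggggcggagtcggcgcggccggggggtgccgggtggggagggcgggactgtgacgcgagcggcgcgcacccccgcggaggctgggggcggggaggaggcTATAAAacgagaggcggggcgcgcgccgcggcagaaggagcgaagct
Zfp36l1: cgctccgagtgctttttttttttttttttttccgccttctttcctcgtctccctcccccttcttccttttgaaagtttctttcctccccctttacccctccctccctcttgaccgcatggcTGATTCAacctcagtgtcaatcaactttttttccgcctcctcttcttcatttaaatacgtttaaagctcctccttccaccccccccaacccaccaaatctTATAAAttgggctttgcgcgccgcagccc
Btg1: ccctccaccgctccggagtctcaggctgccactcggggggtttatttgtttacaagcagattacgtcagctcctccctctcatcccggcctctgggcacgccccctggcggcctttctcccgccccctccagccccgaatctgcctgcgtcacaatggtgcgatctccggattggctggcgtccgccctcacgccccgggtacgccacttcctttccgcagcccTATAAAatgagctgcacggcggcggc

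The Btg2 window held the cyclic AMP response element 166 bases and an Egr motif 131 bases before the start. In the Zfp36 window an Egr motif lay 105 bases and a CArG box 58 bases before it. Tob1, Zfp36l1 and Btg1 had TATAAA at 47, 29 and 26 bases, and Zfp36l1 also had an AP-1 motif at 129 bases. Over all 10 windows of the listed genes, 1 held a CArG box and 1 the cyclic AMP response element. The Egr motif was in 2 of these 10, the AP-1 motif in 1 and TATAAA in 3. Of 32851 RefSeq promoter windows of this length, 1.47% held a CArG box and 1.55% the cyclic AMP response element. The Egr motif was in 4.7% of them, the AP-1 motif in 6.75% and TATAAA in 12.4%. Further motifs were searched without capitals. TGACG, which lies within the longer cyclic AMP response element, was in 3 of 10 windows of the listed genes and in 17.8% of all windows. TTCNNNGAA was in 1 of 10 and in 7.02%, and GGGCGG, which can overlap the Egr motif, in 8 of 10 and in 32.7%. The kappaB motif was in 2 of 10, the windows of Ier3 and of Btg3, and in 7.25% of all. The 10 windows belong to 9 genes, as Btg3 has 2 and Ier2 has none in the table. A match describes these letters only.

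Btg2, a p53-inducible antiproliferative gene, had the widest range of the 9 genes over the arrays. Its log2 level was 8.88 in the KO pool and 5.34 in the WT pool at 8 months. At 2 months it was 8.89 in the KO pool and 5.48 in the WT pool. Both KO pools were thus high, within 0.01 of each other. Both lay above both WT pools, an order found in 29.1% of all genes. The gap between KO and WT came to 3.54 at 8 months, an 11.6-fold higher level in KO, and to 3.41 at 2 months, a 10.6-fold higher level. Among the 11963 genes the difference ranked 3 from the top at 8 months and 4 at 2 months. Its relative Btg1, a FoxO-regulated antiproliferative gene, read 8.45 and 8.31 in KO and WT at 8 months and 8.46 and 8.43 in KO and WT at 2 months. The 4 arrays of Btg1 lay within 0.15 of one another, and KO minus WT was 0.14 and 0.02 at 8 and 2 months.

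**Figure D1:**
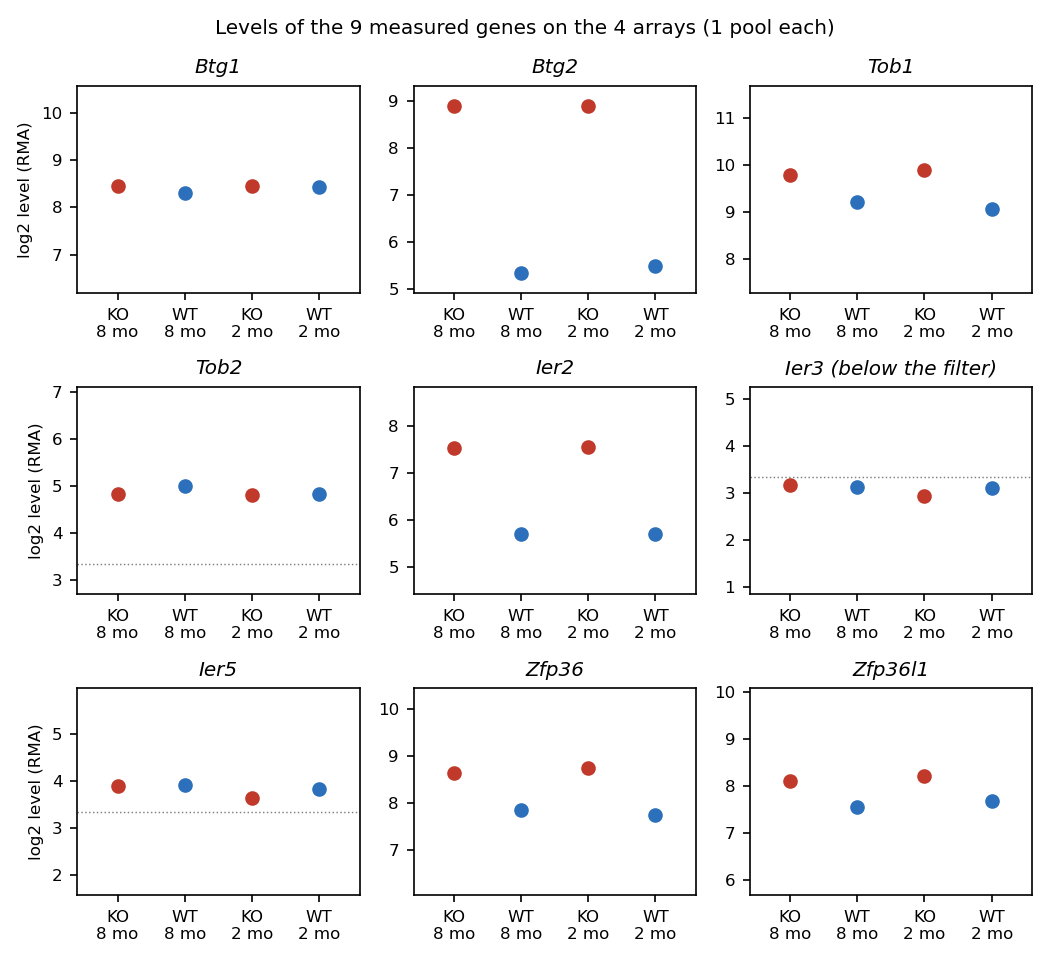
Log2 level (vertical axis, RMA values, each panel spanning the same number of log2 units) of the 9 measured genes on the 4 arrays (horizontal axis, KO left of WT at each age), with 1 point per array of pooled RNA and the filter value of 3.34 as a dotted line where it falls in the panel. Btg2 and Ier2 separate the KO from the WT pools by the widest gaps, Tob1, Zfp36 and Zfp36l1 by smaller ones, and Btg1, Tob2, Ier3 and Ier5 do not separate them by genotype by more than 0.20 at either age.

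Tob1, a transducer of ERBB2 that binds both poly(A)-binding protein and CCR4-NOT, was also higher in the KO pools. It read 9.78 in KO and 9.21 in WT at 8 months, and 9.89 in KO and 9.06 in WT at 2 months. Both KO values lay above both WT values, as in 29.1% of all genes, with differences of 0.57 and 0.83 at 8 and 2 months. The first of these, 1.49-fold, fell just short of 1.5-fold, and at 0.59 to 0.61 under median centring, quantile normalization again and cyclic loess it passed that mark. Tob2, its paralog with the same partners, read 4.83 in KO and 5.0 in WT at 8 months, and 4.82 in KO and 4.83 in WT at 2 months. Here the differences were -0.16 and -0.02, so the values of the KO and WT pools were close, and the highest value was that of the WT pool at 8 months.

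Ier2, which encodes a short nuclear protein and is a widely used marker of early gene induction, read 7.53 in KO and 5.71 in WT at 8 months. At 2 months it read 7.56 in KO and 5.72 in WT. The levels repeated at the other age within 0.03 in each genotype, and the KO pools were higher by 1.82 at 8 months and by 1.84 at 2 months (3.54-fold and 3.59-fold). In rank this was position 22 of 11963 at 8 months and 30 at 2 months. Ier5, a regulator of heat shock factor HSF1, read 3.89 in KO and 3.92 in WT at 8 months, and 3.64 in KO and 3.83 in WT at 2 months. These values lie close to the filter, and the differences were -0.03 and -0.19. Ier3, an NF-kB-responsive survival gene, was below the filter, at 3.17 in KO and 3.12 in WT at 8 months and at 2.92 in KO and 3.09 in WT at 2 months. RMA compresses differences at such low levels, so little can be read from Ier3 and Ier5.

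Zfp36 read 8.64 in KO and 7.86 in WT at 8 months, and 8.74 in KO and 7.74 in WT at 2 months. Its KO pools were above its WT pools by 0.78 and 1.00, or 1.72-fold and 2.00-fold, at 8 and 2 months. Zfp36l1 read 8.10 in KO and 7.55 in WT at 8 months, and 8.22 in KO and 7.68 in WT at 2 months. The differences were 0.55 and 0.54, below 1.5-fold at each age. Both KO values lay above both WT values, as in 29.1% of all genes. Their relative Zfp36l2, another AU-rich element binding protein, did not share this order. It read 6.87 in KO and 7.14 in WT at 8 months, and 6.89 in KO and 6.99 in WT at 2 months, with differences of -0.27 and -0.10. Its mean difference of -0.19 (SE 0.09) did not pass the test (limma adjusted p 0.24).

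The plot of differences at both ages shows unlike differences within the Btg, Tob and Ier families, though Ier5 lies close to the filter. Zfp36 and Zfp36l1 were both higher in KO at both ages. Of the 8 genes past the filter, 3 were at least 1.5-fold higher in KO at 8 months, beside 2.41% of all 11963 genes, and 4 at 2 months, beside 3.98%. The 3 genes Btg2, Ier2 and Zfp36 were so at both ages, as were 1.78% of all genes. At 2-fold the count was 2 at 8 months, beside 0.777%, and 2 at 2 months, beside 0.978%, with Zfp36 at 1.9993-fold just outside at 2 months. None was 1.5-fold lower, beside 1.93% of genes at 8 months and 2.39% at 2 months. In 6 of the 8 genes both KO arrays were above both WT arrays, which was so for 29.1% of all genes. Btg1 was among the 6 by a narrow margin, with 8.45 in its lower KO array and 8.43 in its higher WT array. Its difference at 2 months was -0.06 on quantile normalizing again and under cyclic loess, so its place in this count depends on the scaling. The median KO minus WT of the 8 genes was 0.56 at 8 months and 0.69 at 2 months, against 0.00 and 0.01 over all genes. As the genes were chosen with this contrast known, these counts describe them and no more.

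**Figure D2:**
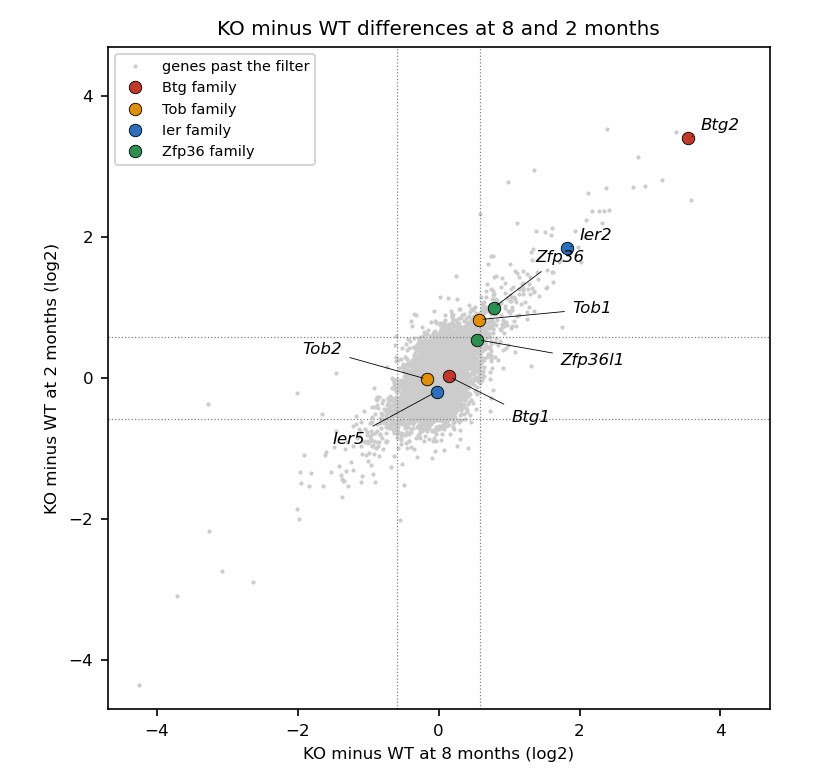
KO minus WT on the log2 scale at 8 months (horizontal axis) and at 2 months (vertical axis) for the 8 genes past the filter, coloured by family, with all 11963 genes in grey and dotted lines at 1.5-fold. Btg2 lies at 3.54 and 3.41 and Ier2 at 1.82 and 1.84, while Btg1, Tob2 and Ier5 lie inside the dotted lines at both ages.

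The genotype differences at the 2 ages come from different pools, so each can be set beside the other. For Ier2 and Zfp36l1 they differed by -0.02 and 0.01 (8 months minus 2 months), less than for all but 6.71% and 1.96% of the 11963 genes. For Btg1, Btg2, Tob2 and Ier5 the difference between the ages was 0.12, 0.13, -0.15 and 0.16, close to the median size of 0.16 over all genes. It was -0.26 for Tob1 and -0.22 for Zfp36, whose genotype differences were smaller at 8 than at 2 months. These sizes were exceeded by 28.3% and 36.2% of all genes. With 1 array per group, no test of a change in the genotype difference with age was possible.

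Age itself did not choose the genes, and its effect was tested in an additive model of genotype and age over all genes. None of the 8 genes passed (limma, adjusted p 1.0 for each), and 0 of 8 had an unadjusted p under 0.05, beside 3.6% of all genes. The model called 1 of 11963 genes for age, so 0% rose and 0.00836% fell. Age effects (8 minus 2 months) ran from -0.12 (SE 0.08) for Zfp36l1 to 0.17 (SE 0.13) for Ier5. Btg2 was at -0.07 (SE 0.09), Ier2 at -0.02 (SE 0.09), Tob1 at 0.02 (SE 0.08) and Zfp36 at 0.01 (SE 0.09). The median size of the age effect was 0.07 for the 8 genes and also 0.07 for all genes. Within a genotype, 0 of 8 genes were 1.5-fold apart between the ages in KO and 0 of 8 in WT, beside 0.652% of all genes in each.

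**Figure D3:**
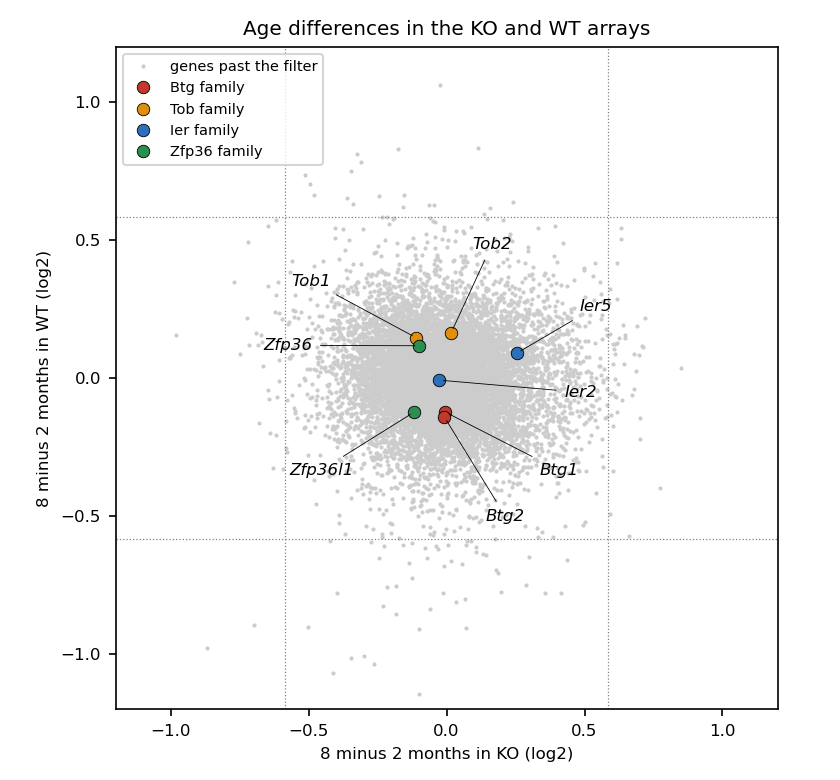
Differences of 8 minus 2 months on the log2 scale in the KO arrays (horizontal axis) and in the WT arrays (vertical axis) for the 8 genes past the filter, with all genes in grey, 9 of which lie outside the axes, and dotted lines at 1.5-fold. The 8 genes sit within 0.26 of 0 on both axes, and Tob1 and Zfp36 fall on opposite sides of 0 in KO and in WT.

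Genes with which these proteins act were taken from 8 lists of related genes, 97 distinct genes past the filter apart from the 10. In the additive model 14 rose and 5 fell in KO, and 78 did not pass, while 6.81% of all genes rose and 4.26% fell. Genes that rose made up 61.5% of all calls as reported, 52.7% on quantile normalizing again, 55.3% under cyclic loess and 68.6% under median centring. The decay machinery was mostly among those that did not pass. Of 16 genes of the CCR4-NOT complex and other deadenylases 1 rose, and list medians of KO minus WT were -0.06 at 8 months and 0.07 at 2 months. It was Noct (nocturnin), a rhythmically expressed member of the deadenylase-like enzymes, which read 7.30 in KO and 6.28 in WT at 8 months and 7.41 in KO and 6.14 in WT at 2 months. Its mean difference was 1.14 (SE 0.10, limma adjusted p 7.9e-06). Of 20 genes of decapping, 5′ to 3′ decay and the exosome 0 rose and 1 fell, the exosome subunit Exosc5, with -0.38 (SE 0.10, limma adjusted p 0.035). The list medians were 0.01 and 0.06. Of 12 other AU-rich element binding proteins 1 rose, Rc3h2 (Roquin-2), with 0.42 (SE 0.09, limma adjusted p 0.011), and the medians were -0.02 and 0.11.

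Transcripts known as targets of the ZFP36 family had the largest share of calls among these lists. Of 15 past the filter 9 rose and 2 fell, with median differences of 0.56 at 8 months and 0.47 at 2 months, against 0.00 and 0.01 over all genes. Over all 23 measured targets, with no filter, 9 rose and 1 fell, and the medians were 0.16 and 0.17. Several of them are themselves early genes, and the lists were written with earlier results of these data known. This share therefore describes the list and is no independent test of ZFP36 targets. Fos, the AP-1 factor, rose most, with 3.70 (SE 0.10, limma adjusted p 2.4e-10). It read 8.17 in KO and 4.39 in WT at 8 months and 8.12 in KO and 4.49 in WT at 2 months. The polo-like kinase Plk3 and the AP-1 factor Junb rose by 1.56 (SE 0.11) and 1.02 (SE 0.11). The hepatokine Fgf21 and the NF-kB inhibitor Nfkbia fell by 0.46 and 0.44 on the log2 scale. The bile acid enzyme Cyp7a1, named after its values were seen because it is a target of ZFP36L1 in mouse liver, did not pass (limma adjusted p 0.79). Its difference was -0.31 at 8 months but 0.47 at 2 months. The measured targets that are not among these 15 were below the filter. Among them was Tnf, the best known target of ZFP36 and also named afterwards, with 2.60 in KO and 2.84 in WT at 8 months and 2.68 in KO and 2.82 in WT at 2 months.

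**Figure D4:**
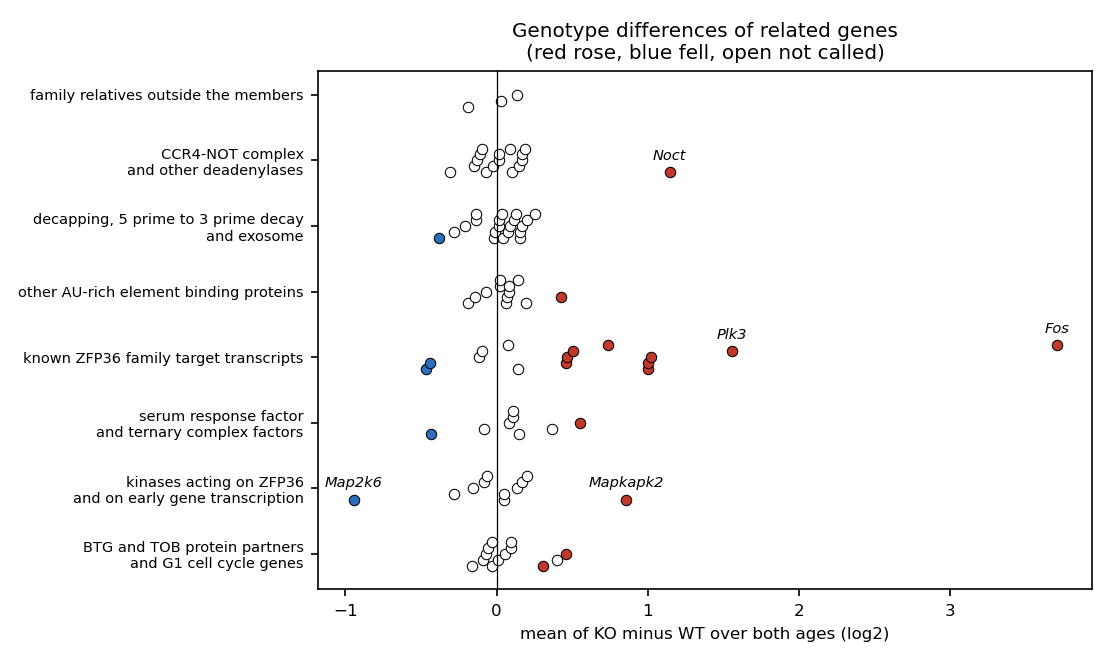
Mean of KO minus WT over both ages on the log2 scale (horizontal axis) for the genes past the filter in the 8 lists of related genes (rows), 1 point per gene, red for genes that rose and blue for genes that fell in the additive model, open for the others. Fos at 3.70, Plk3 at 1.56 and Noct at 1.14 lie farthest to the right and Map2k6 at -0.95 farthest to the left.

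Upstream, serum response factor and the factors that work beside it on early promoters had 1 of 8 genes that rose and 1 that fell. Over all genes 6.81% rose and 4.26% fell. Srf itself rose, with 0.55 (SE 0.12, limma adjusted p 0.011), at 5.15 in KO and 4.64 in WT at 8 months and 5.31 in KO and 4.72 in WT at 2 months. The CREB coactivator Crtc2 fell, with -0.43 (SE 0.11, limma adjusted p 0.026), and the list medians were 0.15 and 0.05. Among 11 genes of kinases and a phosphatase subunit that act on ZFP36 or on early gene transcription 1 rose and 1 fell (medians -0.04 and 0.04). The gene that rose was Mapkapk2 (MK2), which phosphorylates ZFP36 and reduces its decay activity. It read 7.30 in KO and 6.58 in WT at 8 months and 7.50 in KO and 6.51 in WT at 2 months (mean 0.86, SE 0.10, limma adjusted p 9.5e-05). Map2k6, which activates the p38 kinases upstream of MK2, fell, with -1.22 at 8 months and -0.67 at 2 months (mean -0.95, SE 0.14, limma adjusted p 0.00062).

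Of 13 partners of BTG and TOB proteins and genes of the G1 phase 2 rose and 0 fell (medians 0.09 and 0.06). The shares over all genes were 6.81% and 4.26%. Cyclin D1 (Ccnd1), which is also on the target list, rose by 0.46 (SE 0.10) and its kinase Cdk4 by 0.31 (SE 0.09). The call of Cdk4 had a limma adjusted p of 0.045 and was lost on quantile normalizing again, with 0.090. Without the intensity trend of the model 0 of the 13 rose. None of the 3 relatives past the filter passed the test. Besides Zfp36l2 these were Ier5l, with 0.23 and -0.18 at 8 and 2 months, and Zfp36l3, a rodent gene of placenta, with 0.26 and 0.02. Btg4, known for the clearing of maternal transcripts in the egg, was below the filter, between 2.06 and 2.26 on the 4 arrays.

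By Euclidean distance between profiles over the 4 arrays, each centred on its own mean, the 5 genes nearest to Btg2 outside the list were Btbd19 (0.19 log2 units), Fos (0.23), Gsn (0.53), Egr2 (0.56) and Jun (0.67). Nearest to the mean profile of the 8 genes were Ccdc149 (0.03), Irs2 (0.06), Rps3a1 (0.08), Arfgap3 (0.09) and Lrtm1 (0.10). That mean takes in Btg2 and Ier2, whose KO minus WT averaged 3.48 and 1.83 over both ages. It also takes in Btg1, Tob2 and Ier5, at 0.08, -0.09 and -0.11, so nearness to it is not nearness to each gene. Fos, Egr2 and Jun belong to the AP-1 and Egr early factors. Predicted genes, RIKEN clones, small RNAs, olfactory and vomeronasal receptors, and immunoglobulin and T-cell receptor segments were left out of both rankings by symbol. A distance over 4 arrays is a description.

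The deposited values had array medians between 3.52 and 3.58, and the number of arrays limits the precision. Sirt6, the targeted gene, read 4.46 in KO and 4.50 in WT at 8 months and 4.54 in KO and 4.55 in WT at 2 months (limma adjusted p 0.92). The exons under its probes are unknown here, so the value does not check the labels, and KO and WT mean the pools so labelled. All 9 measured hepatocyte markers passed the filter and 0 passed the test as reported, though 1 rose and 2 fell on quantile normalizing again and 2 rose and 2 fell under cyclic loess. Some markers of other cells moved with the genotype, where 6.81% of all genes rose and 4.26% fell. Of 9 Kupffer cell markers past the filter 3 rose, Cd5l by 0.72, Vsig4 by 0.49 and Timd4 by 0.43, with a summed linear level of 10 markers of 469 to 505 in KO and 360 to 414 in WT. The other 6 did not pass. Of these, Clec4f was at 0.06 and -0.04 and C1qa at 0.43 and -0.11 at 8 and 2 months. Adgre1, Csf1r, C1qb and Cd68 were higher in KO at both ages. Of 4 erythroid markers 2 rose, Car1 by 0.73 and Alas2 by 0.64, with sums of 308 to 340 in KO and 199 to 220 in WT. The other erythroid markers, Klf1 at -0.38 and -0.43 and Slc4a1 at 0.28 and 0.15 at 8 and 2 months, did not pass (limma adjusted p 0.072 and 0.35). Of 10 stellate cell and fibroblast markers 1 rose, Reln by 0.29, and 4 fell, among them Acta2 with -1.94, Col1a2 with -0.72 and Col1a1 with -0.56, with sums of 1168 to 1198 in KO and 1209 to 1249 in WT. Of 10 endothelial markers 1 rose, Cdh5 by 0.45, with sums of 579 to 615 in KO and 576 to 594 in WT. None of 10 neutrophil, 1 of 9 lymphocyte and 3 of 6 cholangiocyte markers passed the filter, and 0 of these passed the test. Without the filter on low levels the calls of Timd4, Reln, Col1a1 and Cdh5 and, among the lists above, of Exosc5, Crtc2, Fgf21 and Cdk4 were lost. The part of other cells in the differences of Btg2, Tob1, Ier2, Zfp36 and Zfp36l1 was not tested.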

How the data were processed

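Total RNA of liver was hybridized to 4 arrays, 1 per group. The authors deposited log2 values, and the submitters' processing notes name RMA and Affymetrix Expression Console (1.0v). RMA corrects background, quantile normalizes arrays and summarises probe sets, which compresses low differences. The table does not state the log base, taken here to be 2 as RMA gives, and the genome build is not given in the sources used here. Groups were taken from the titles.

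Of 35556 probe sets, 21789 with 1 gene symbol were used, and probe sets of a gene were averaged. Each of the 9 measured genes has 1 probe set. Genes with a mean above the 40th percentile entered the fit, lmFit and eBayes of limma 3.58.1 (R 4.3.3) with an intensity trend and effects of genotype and age, at a Benjamini-Hochberg adjusted p of 0.05 over 11963 genes. It leaves 1 residual degree of freedom per gene, moderated with a prior of 11.3. Its p-values set each effect against the departure from additivity, in which the spread between pools and a genotype effect that differs with age cannot be told apart. The spread between mice of a pool is not measured. "Rose" and "fell" mean past this threshold.

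The 10 genes and all lists were chosen with earlier results of these data known. The calls and p-values of list genes therefore describe those genes and are no independent test of a list. Named from each list were up to 3 genes past the threshold in each direction, all family relatives, and the 5 nearest profiles. Alternatives were other scalings, another probe set rule, no filter, no trend and a 2-fold threshold.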

Additional observations from a re-analysis of the deposited data

Results flagged for a closer look

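KO minus WT was compared between the ages for the measured listed genes, the genes named from the lists, Sirt6, Cyp7a1 and Tnf. Chromosomal neighbours of the listed genes that passed the filter were also included. Apart from the relatives, the genes named from the lists had been picked by the genotype test. The age difference was compared between KO and WT for the measured listed genes only. In all, 12 pairs of differences had opposite signs, each from 1 array per group and none tested. The share of all genes with opposite signs was not counted, so this number cannot be set beside it. The median size of the difference between the ages was 0.16 over all genes. The age difference of Tob1 was -0.11 in KO and 0.15 in WT, a difference of -0.26, and that of Zfp36 was -0.10 in KO and 0.12 in WT, a difference of -0.22. In size these were exceeded by 28.3% and 36.2% of all genes. KO minus WT of Ier3, which is below the filter, was 0.05 at 8 months and -0.17 at 2 months, a difference of 0.22. That of Ier5l was 0.23 and -0.18, a difference of 0.41, and that of Btg4, also below the filter, was 0.04 and -0.03, a difference of 0.065. That of Cyp7a1 was -0.31 and 0.47, a difference of -0.78. Of the genes beside the listed ones, the difference between the ages was 0.44 for Cacna1a, -0.44 for Med29, 0.30 for Plekhg2, -0.54 for Eea1, -0.21 for D16Ertd472e and -0.088 for Mr1.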

How the results depend on the processing

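No paired analysis was possible because each group was 1 array of pooled RNA, and the additive model already compares KO with WT within each age. Under quantile normalization again, median centring, cyclic loess, the brightest probe set and no filter, the counts of genes 1.5-fold higher in KO were within 1.5 times of those reported (Tob1 at 8 months and Zfp36l1 at 2 months lie near the threshold and passed it under some). KO minus WT of Btg2 ran from 3.54 to 3.56 at 8 months and from 3.33 to 3.45 at 2 months, and that of Ier2 from 1.81 to 1.84 and from 1.75 to 1.89. Tob1 ran from 0.57 to 0.61, Zfp36 from 0.78 to 0.81 and Zfp36l1 from 0.55 to 0.57 at 8 months, and from 0.76 to 0.87, 0.90 to 1.04 and 0.45 to 0.59 at 2 months. Btg1 ran from -0.06 to 0.07 and Tob2 from -0.04 to 0.03 at 2 months, so their sign there is unsettled. With a 2-fold threshold the count at 2 months was 2. Without the filter 2 genes of the 8 lists fell, where more genes were tested, and the calls of Exosc5, Crtc2, Fgf21, Cdk4, Cdh5, Reln, Col1a1 and Timd4 were lost. Without the trend the calls of Ccnd1, Cdk4, Exosc5, Reln and Col1a1 were lost, and under median centring that of Exosc5 (adjusted p 0.057). Quantile normalizing again lost those of Cdk4 and Reln. No age effect of the 8 genes passed under any of these settings. Over all genes 752 passed for genotype without the filter and 846 without the trend, against 1325 as reported, and 1967 under cyclic loess. The age model called 17 genes under cyclic loess and 2 under median centring.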

Other observations

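The protein-coding genes next to the listed genes in the RefSeq gene order (GRCm38.p6) were looked up after the values were seen. Next to Ier2 lies Nacc1, a BTB-domain transcriptional regulator, which rose, with 0.57 at 8 months and 0.58 at 2 months (limma adjusted p 0.0059), while Cacna1a on the other side was at 0.18 and -0.26. Next to Tob2 lies Tef, a PAR bZIP factor of the clock output, which fell, with -0.37 and -0.41 (limma adjusted p 0.015), while Phf5a was at -0.08 and -0.05. Next to Btg3, which has no value of its own here, lies Cxadr, the coxsackievirus and adenovirus receptor. Cxadr rose, with 0.27 and 0.40 (limma adjusted p 0.044), while D16Ertd472e on the other side was at -0.05 and 0.17. Neither neighbour of Btg2, Fmod and Chit1, passed the filter. The neighbours of Zfp36, Plekhg2 and Med29, were at 0.13 and -0.17, and at -0.05 and 0.39, and did not pass the test. Spag9 beside Tob1 was at 0.01 and 0.11. Eea1 beside Btg1 was at -0.01 and 0.53, Flot1 beside Ier3 at -0.31 and -0.30, and Mr1 beside Ier5 at -0.005 and 0.08. Spag9, Eea1, Flot1, Mr1 and D16Ertd472e did not pass the test. Over all genes 6.81% rose and 4.26% fell.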
